A study of Mus musculus with 32 samples.

Results

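Open chromatin was examined at 10 genes for neutrophil granule and antimicrobial proteins (Mpo, Elane, Prtn3, Ctsg, Ltf, Camp, Ngp, Lcn2, S100a8 and S100a9) in mouse haematopoietic stem and progenitor cells (HSPCs). Their regions were taken from 16 deposited ATAC-seq peak lists; ATAC-seq marks open DNA by transposase insertion. A peak was assigned to a gene of the set when that gene was the nearest protein-coding gene model (GRCm38) within 50 kb, and overlapping peaks of different libraries were merged into regions. The set held 37 regions of 146713 in all, and 255 of 1033814 autosomal peaks. A region was found for 9 of the 10 genes, and none for Lcn2. Assignment rests on distance alone, and a region may act on another gene.

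The HSPCs came from bone marrow of mice with a mixed transplant, in leukaemia remission or without a leukaemia history, at rest or after an inflammatory stimulus. AF9-experienced mice were lethally irradiated C57BL/6J recipients (CD45.2) of 200000 marrow cells from iMLL-AF9 donors (CD45.1), homozygous for hMLL-AF9, a leukaemia driver, and for rtTA, the doxycycline-dependent inducer. They also received 800000 wild-type marrow cells (CD45.1+/2+). Naive mice received the same mixture, except that the CD45.1 marrow was hMLL-AF9-null and homozygous for rtTA only. From 6 to 8 weeks after transplantation, doxycycline was given for 5 weeks and then withdrawn for 4 weeks; the design text does not say separately that naive mice had this schedule. Mice were then injected with LPS, a bacterial lipopolysaccharide, or with PBS, and killed 24 hours later. The sorted cells were the wild-type, CD45.1+/2+ fraction (lineage-negative, cKit-positive, Sca1-positive), so the cells measured descended from the wild-type donors and not from the MLL-AF9 marrow. The labels used here give neither the LPS dose nor the age of the mice. The groups held 5 AF9-experienced LPS, 4 AF9-experienced PBS, 3 naive LPS and 4 naive PBS libraries, each a biological replicate by its label with 2 technical libraries behind it. Nothing in the labels says whether marrow of several mice was pooled in a replicate.

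Neutrophil granules are filled in sequence as a myeloid precursor matures. Primary (azurophil) granule proteins, myeloperoxidase and the serine proteases neutrophil elastase, proteinase 3 and cathepsin G, are made first, at the promyelocyte stage. Secondary granule proteins such as lactoferrin are made later, and S100a8 and S100a9, the subunits of calprotectin, fill the cytosol of the mature cell. PU.1, C/EBP and RUNX factors are known regulators of many of these genes. LPS calls for more neutrophils from the marrow, a response known as emergency granulopoiesis.

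The lists held 19448 to 88816 peaks. Total reads cannot be read from such lists, so depth is known only through list length. The value used for each region was its percentile rank: the position of its strongest peak, by the authors' -log10 p, among the strongest 59609 autosomal peaks of a library. The scale runs to 100 for a library's strongest peak, and regions without a peak among the 59609 were set to 0. The 13 libraries with at least 50000 autosomal peaks were compared in this way, namely 5 AF9-experienced LPS, 3 AF9-experienced PBS, 2 naive LPS and 3 naive PBS libraries. The short lists of AF9-experienced PBS 1 (25219 autosomal peaks), naive LPS 3 (38762) and naive PBS 1 (19100) were left out of the fit, and their positions are given where they bear on a result. A rank moves when other regions move, so differences are in percentile points and not in accessibility. In bulk cells, fewer cells with an open region and less opening per cell cannot be told apart.

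The labelled cell type was checked on peaks within 1 kb of a gene model end. Of 11 HSPC markers, 9 to 10 had such a peak in each AF9-experienced LPS list, 8 to 10 in AF9-experienced PBS, 8 to 10 in naive LPS and 7 to 10 in naive PBS lists. Kit had one in all 16 lists, but Ly6a, which encodes the sort marker Sca1, had one in 0 lists. Of 7 mature neutrophil markers, which include Camp and Ltf themselves, 1 to 4 had a peak in the AF9-experienced LPS lists, 1 to 4 in AF9-experienced PBS, 3 in naive LPS and 1 to 4 in naive PBS lists. Mmp8 had a gene-end peak in 14 lists, Ltf in 13, Camp in 9, Cxcr2 in 5 and Ly6g in 1. Mmp9 and Retnlg had none in any list. Markers of other lineages had such peaks too. In each AF9-experienced LPS list these were 3 of 4 erythroid, 3 of 5 macrophage and 3 of 4 endothelial and stromal markers. There, 1 to 3 of 8 lymphocyte and 1 to 3 of 3 mast cell and basophil markers had one. Peaks at gene ends were thus not particular to HSPC markers. The median fold enrichment of the 59609 strongest peaks was 4.65 to 7.53 in the LPS libraries and 8.34 to 13.3 in the PBS libraries. This measure of signal over background separates the treatments completely, so it and LPS cannot be told apart here. AF9-experienced LPS 1 and 2 and the naive LPS libraries held 2 to 3 peaks on chromosome Y, against 0 or 1 in others. The part of this in the results was tested only in AF9-experienced mice, by leaving these libraries out. In naive mice every LPS library is among them, so these peaks and LPS cannot be told apart there.

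The promoter sequences below (RefSeq, GRCm38.p6; 250 bases before to 50 after the gene start, on the gene's strand) are shown because the start regions of Mpo, Ctsg, Ltf and S100a8 are compared between groups, while Elane and Ngp hold matches to the same motifs but were rarely open. Capitals mark matches on either strand to motifs of known regulators of granulocyte genes: PU.1 (GAGGAAGT), C/EBP (TTGCNNAA) and RUNX (TGTGGT). Promoters were found for all 10 genes.
Mpo (chr11:87793534-87793833, plus strand): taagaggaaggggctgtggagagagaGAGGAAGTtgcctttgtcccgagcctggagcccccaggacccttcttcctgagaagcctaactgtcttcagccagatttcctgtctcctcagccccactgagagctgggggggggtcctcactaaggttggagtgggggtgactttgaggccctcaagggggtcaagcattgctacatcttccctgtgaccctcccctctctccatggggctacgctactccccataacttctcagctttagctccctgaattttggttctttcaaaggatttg
Elane (chr10:79886062-79886361, plus strand): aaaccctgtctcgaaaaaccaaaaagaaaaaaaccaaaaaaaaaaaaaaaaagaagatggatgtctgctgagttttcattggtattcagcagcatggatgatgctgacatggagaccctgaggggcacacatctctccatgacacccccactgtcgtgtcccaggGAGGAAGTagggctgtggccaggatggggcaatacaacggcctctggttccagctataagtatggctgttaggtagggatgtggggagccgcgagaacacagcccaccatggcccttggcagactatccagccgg
Ctsg (chr14:56102525-56102824, minus strand): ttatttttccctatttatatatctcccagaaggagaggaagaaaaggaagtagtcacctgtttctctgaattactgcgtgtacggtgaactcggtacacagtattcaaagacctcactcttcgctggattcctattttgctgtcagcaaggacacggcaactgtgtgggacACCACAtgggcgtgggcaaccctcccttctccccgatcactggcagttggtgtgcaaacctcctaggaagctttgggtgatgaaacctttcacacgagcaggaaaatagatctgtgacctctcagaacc
Ltf (chr9:111019042-111019341, plus strand): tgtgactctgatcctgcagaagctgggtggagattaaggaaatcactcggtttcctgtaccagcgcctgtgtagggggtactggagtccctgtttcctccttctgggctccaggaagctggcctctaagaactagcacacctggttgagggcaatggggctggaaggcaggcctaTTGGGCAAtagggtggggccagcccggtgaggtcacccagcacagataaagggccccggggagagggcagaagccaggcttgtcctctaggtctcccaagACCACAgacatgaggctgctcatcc
Ngp (chr9:110419558-110419857, plus strand): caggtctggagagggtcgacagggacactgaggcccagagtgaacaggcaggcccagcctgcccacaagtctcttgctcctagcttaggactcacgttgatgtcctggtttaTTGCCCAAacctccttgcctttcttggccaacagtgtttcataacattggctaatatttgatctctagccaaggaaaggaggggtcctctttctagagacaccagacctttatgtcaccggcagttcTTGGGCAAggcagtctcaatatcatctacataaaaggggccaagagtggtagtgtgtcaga
S100a8 (chr3:90668821-90669120, plus strand): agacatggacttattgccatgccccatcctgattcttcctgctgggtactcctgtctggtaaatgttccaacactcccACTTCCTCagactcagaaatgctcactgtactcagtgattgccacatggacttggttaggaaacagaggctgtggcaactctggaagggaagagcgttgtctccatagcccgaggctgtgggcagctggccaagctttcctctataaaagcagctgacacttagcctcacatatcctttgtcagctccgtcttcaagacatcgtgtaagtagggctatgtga

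The PU.1 letters were found in 4 of the 10 promoters, those of Mpo, Elane, Prtn3 and S100a8, and in 3.20% of all 32851 RefSeq promoters of the same length. In Elane they began 85 bases before the start, in Prtn3 95, in S100a8 172 and in Mpo 224 bases before it. The C/EBP letters were also in 4 promoters (Ltf, Ngp, Lcn2 and S100a9) and in 10.8% of all promoters, and Ngp held them at 2 places. The RUNX letters were in 3 (Ctsg, Ltf and S100a9) and in 16.8% of all. Letters for AP-1 (TGANTCA) and for the NF-kB motif, factors of the immediate response to LPS, were in 0 of the 10, against 7.81% and 1.47% of all promoters. Ltf and S100a9 held both C/EBP and RUNX letters, at separate places, and the Camp promoter held none of the motifs. A match is a run of letters and not a shown binding site.

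Open promoters were uneven across the set. A peak overlapped the printed promoter window in 14 of 16 lists for Ctsg, 13 for Ltf, 12 for Mpo, 9 for Camp, 8 for S100a8 and 3 for Elane. The windows of Ngp and S100a9 were covered in 1 list each, and those of Prtn3 and Lcn2 in none. Among the 37 regions, 9 lay at a gene start, 12 upstream, 8 inside a gene and 8 downstream of one. Only 3 regions had a peak in all 16 lists, and 13 had one in 1 list. None of the 3 in all lists was at a gene start: they lay at -1.7 kb from the start of Prtn3, at +27.1 kb from that of Ltf and at -14.5 kb from that of S100a9. The ranks were tested at the 18 regions of 7 genes with a peak in at least 3 of the 13 libraries. The other 19, which include all regions of Elane and Ngp, were in at most 6 of the 16 lists. The tested regions were therefore those found most often, and the set as a whole was less open than they were.

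**Figure D1:**
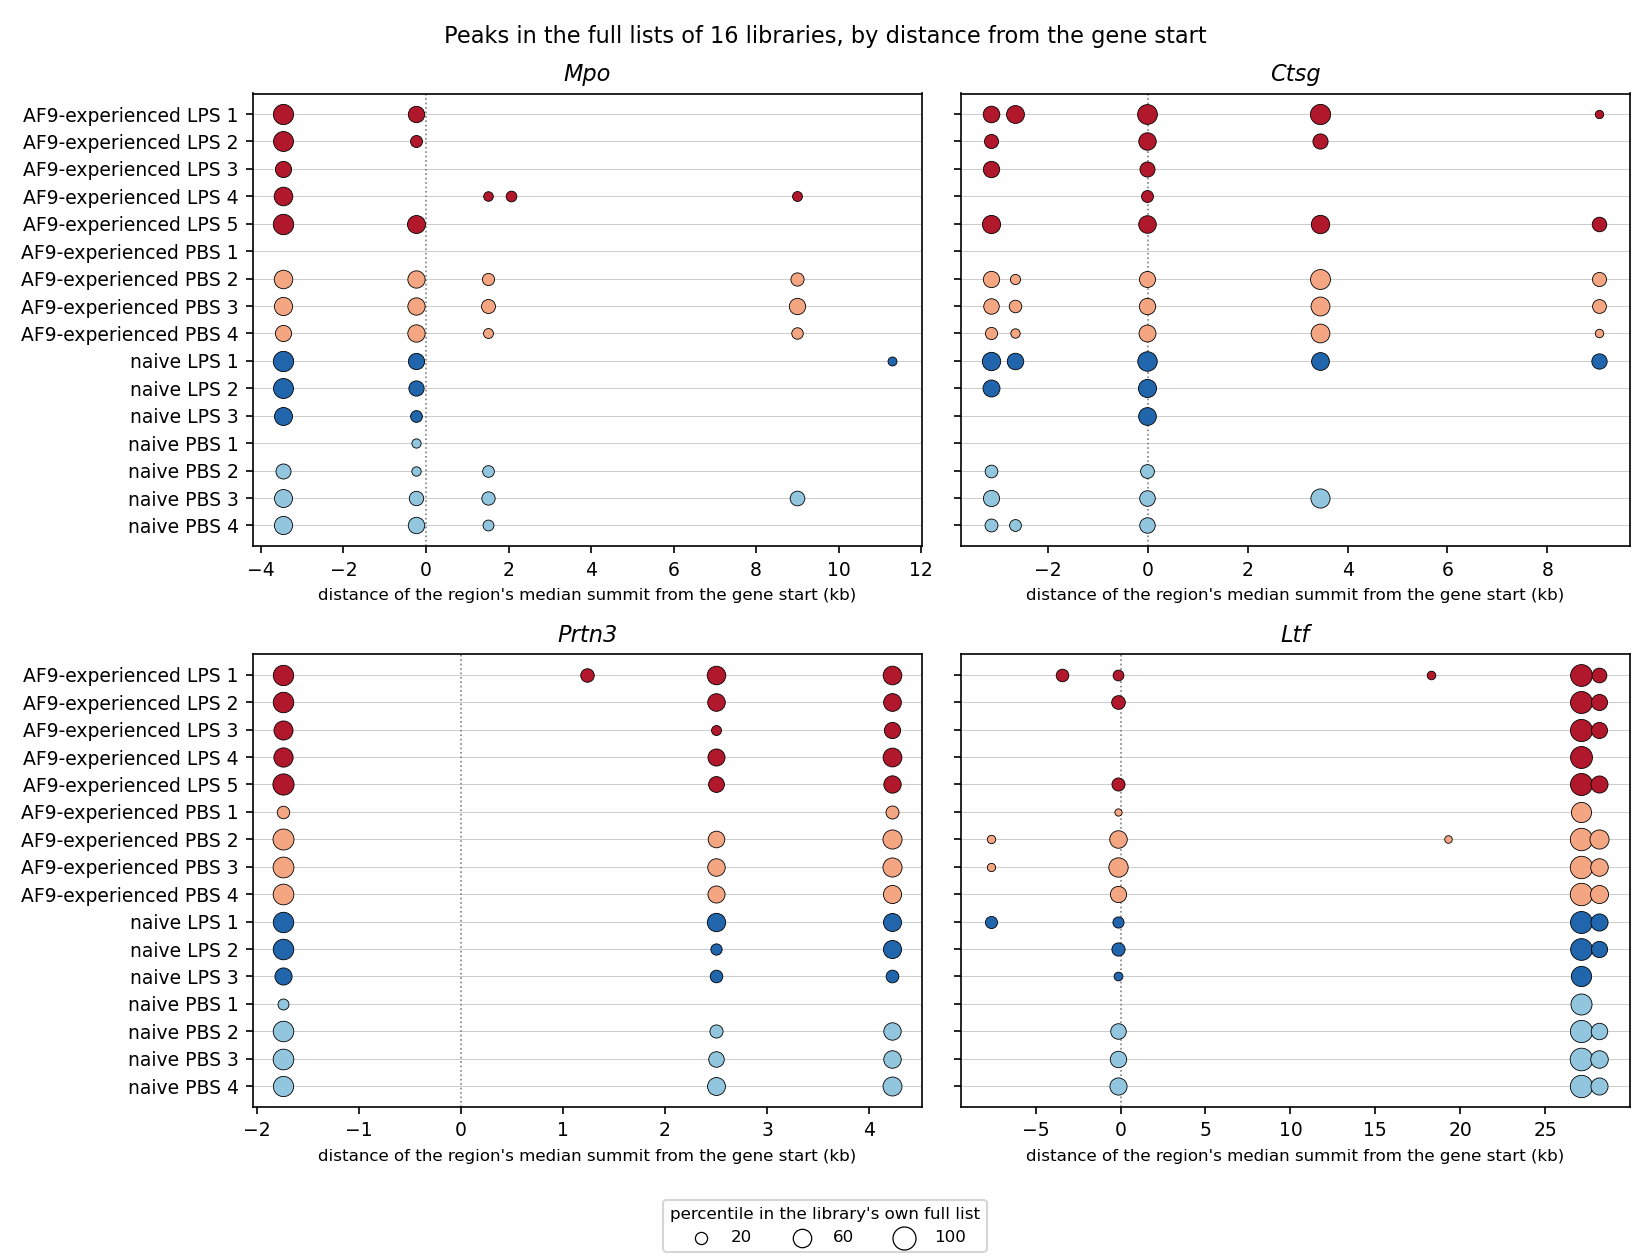
Peaks near 4 granule genes in the full lists of all 16 libraries. The x axis is the distance of the region's median summit from the gene start (kb), rows are libraries, and the size of a circle is the percentile of the peak in that library's own full list; full lists differ in length, so sizes are not compared between libraries. The Prtn3 region at -1.7 kb and the Ltf region at +27.1 kb have a circle in every row, and the Mpo region at -3.5 kb in 14 of 16.

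**Figure D2:**
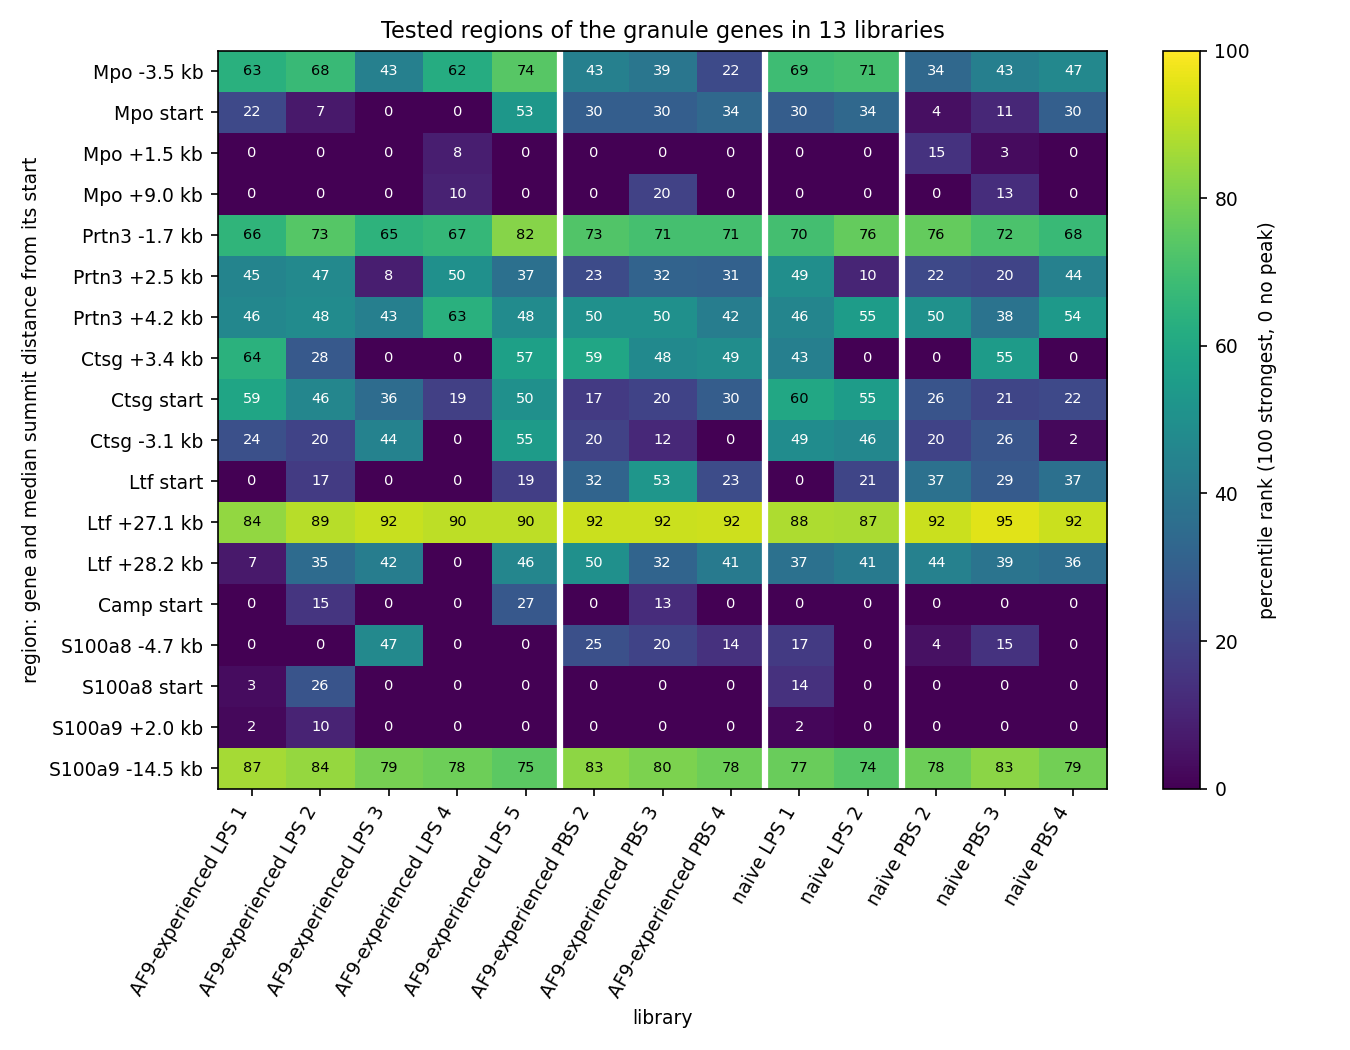
Percentile rank (colour and number) of the 18 tested regions, 1 row each, in 13 libraries in columns. The strongest peak is 100, and 0 means no peak among the 59609 compared. Regions are named by gene and by the distance of their median summit from the gene start. The Ltf +27.1 kb, S100a9 -14.5 kb and Prtn3 -1.7 kb regions are strong in every library, and the Camp start, S100a8 start and S100a9 +2.0 kb regions are at 0 in 10 of the 13.

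Mpo encodes myeloperoxidase, the haem enzyme of primary granules that makes hypochlorous acid. Its strongest region (chr11:87789953-87790558) lay 3.2 kb upstream of the gene, with summits -3489 to -3424 bp from the start in all 14 lists that held it; Tspoap1, the next gene, is 4.0 kb away on the other side. Its ranks were 63.5, 67.9, 43.4, 61.8 and 74.1 in AF9-experienced LPS libraries, against 43.4, 39.3 and 22.4 in AF9-experienced PBS libraries. They were 69.0 and 70.6 in naive LPS libraries, against 33.9, 43.0 and 46.6 in naive PBS libraries. After LPS the region ranked higher, with no overlap in naive mice, while in AF9-experienced mice LPS 3 stood just below PBS 2. A lack of overlap, here and below, describes few libraries, and its share over all tested regions was not counted. In AF9-experienced mice the means were 62.1 ± 11.5 after LPS (SD, n = 5) and 35.0 ± 11.2 after PBS (n = 3), a difference of 27.1 ± 7.29 points (SE, limma, adjusted p = 0.0247). In naive mice they were 69.8 ± 1.15 after LPS (n = 2) and 41.2 ± 6.51 after PBS (n = 3), a difference of 28.6 ± 9.11 points that did not pass (adjusted p = 0.0658). The LPS differences of both backgrounds themselves differed by -1.52 ± 11.7 points (interaction, adjusted p = 0.997).

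The Mpo call depended on the libraries and on the fit. It was lost without AF9-experienced PBS 3 (difference 29.3, adjusted p = 0.0652) or PBS 4 (20.8, adjusted p = 0.143), without the libraries with Y peaks (24.7, adjusted p = 0.0969), and with median fold enrichment as a covariate (51.7, adjusted p = 0.300). It was also lost, with the difference down to 6.07 (adjusted p = 0.852), when a peak had to cover 50% of the region, and down to 3.85 (adjusted p = 0.641) in all 16 libraries at the shortest list length. Of the 3 short lists, naive LPS 3 held the Mpo -3.5 kb peak at position 16742 of 38762, while AF9-experienced PBS 1 and naive PBS 1 held none. With the 14 longest lists, each shortened to 38762 peaks, an alternative chosen after the data were seen, the region was called in both backgrounds. It then averaged 41.8 ± 17.7 in AF9-experienced LPS (n = 5) and 6.55 ± 6.47 in AF9-experienced PBS libraries (n = 3), a difference of 35.2 ± 9.55 (adjusted p = 0.0247). In naive mice it averaged 54.7 ± 2.25 after LPS and 10.1 ± 9.13 after PBS (n = 3 each), a difference of 44.6 ± 10.7 (limma, adjusted p = 0.0127). The cut at 38762 sets naive PBS 2 and AF9-experienced PBS 4 to 0. They held the peak past it, at positions 39379 and 46278, so the PBS averages also depend on the cut.

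The start region of Mpo (chr11:87793290-87794168) was weaker and moved less regularly. Its ranks were 22.3, 6.96, 0, 0 and 53.1 in AF9-experienced LPS libraries, against 29.7, 29.7 and 33.8 in AF9-experienced PBS libraries. They were 29.6 and 33.9 in naive LPS, against 3.94, 11.03 and 30.4 in naive PBS libraries. The groups overlapped, and neither LPS comparison passed (adjusted p = 0.419 in AF9-experienced and 0.522 in naive mice). Of the short lists, naive PBS 1 held the start peak at position 17748 of 19100 and naive LPS 3 at 31717 of 38762. AF9-experienced PBS 1 did not hold it. The 2 tested regions inside the gene, at +1.5 and +9.0 kb, were at 0 in 10 of 13 libraries each and reached at most 14.6 and 19.8.

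Prtn3 and Elane encode proteinase 3 and neutrophil elastase, serine proteases of primary granules whose genes are neighbours on chromosome 10. The Prtn3 -1.7 kb region (chr10:79877230-79878352), which is 1.3 kb from Prtn3 and 2.3 kb from Plppr3, was among the steadiest of the set. Its ranks were 65.5, 73.5, 64.6, 66.7 and 81.9 in AF9-experienced LPS, against 72.9, 70.5 and 70.5 in AF9-experienced PBS libraries. They were 70.1 and 76.2 in naive LPS, against 76.5, 71.8 and 67.7 in naive PBS libraries. The LPS ranges enclosed or overlapped the PBS ranges in both backgrounds (adjusted p = 0.908 in AF9-experienced and 0.927 in naive mice). The region between both genes (chr10:79883437-79884875), 0.3 kb past the end of Prtn3 and 1.4 kb from Elane, was assigned to Prtn3 by the nearer distance. It ranked 46.2, 48.4, 43.3, 63.4 and 48.1 in AF9-experienced LPS, against 50.3, 50.2 and 42.3 in AF9-experienced PBS libraries. It ranked 45.6 and 55.3 in naive LPS, against 50.4, 38.3 and 54.2 in naive PBS libraries. The groups overlapped in both backgrounds (adjusted p = 0.859 in AF9-experienced and 0.892 in naive mice). The region inside Prtn3, at +2.5 kb, ranged more widely, at 8.21 to 50.2 in AF9-experienced LPS, 22.7 to 32.0 in AF9-experienced PBS, 10.3 and 49.4 in naive LPS, and 20.5 to 43.9 in naive PBS libraries.

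Elane's own start region was listed in 3 of 16 libraries, and in the lower part of each list. It stood at position 67433 in AF9-experienced LPS 2, 83383 in AF9-experienced PBS 2 and 58859 in naive LPS 1. Its fold enrichment there was 2.06 to 2.81 as the authors' caller gave it. The start of Elane was thus rarely called, although its promoter holds the same PU.1 letters as that of Mpo.

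Ctsg encodes cathepsin G, the third primary granule protease of the set, in a cluster of protease genes on chromosome 14. Its start region (chr14:56102185-56102747) covered the promoter printed above by 138 to 223 of its 300 bases. Ranks were 58.7, 45.8, 35.5, 18.9 and 50.01 in AF9-experienced LPS libraries, against 17.2, 20.01 and 29.6 in AF9-experienced PBS libraries. In naive mice they were 60.1 and 55.2 after LPS, against 26.1, 20.7 and 21.9 after PBS. The LPS libraries stood above the PBS libraries without overlap in naive mice, and in AF9-experienced mice all but LPS 4 did. The means were 41.8 ± 15.3 in AF9-experienced LPS (SD, n = 5) and 22.2 ± 6.50 in AF9-experienced PBS libraries (n = 3), a difference of 19.5 ± 9.12 points (SE, limma, adjusted p = 0.178). They were 57.6 ± 3.45 in naive LPS (n = 2) and 22.9 ± 2.81 in naive PBS libraries (n = 3), a difference of 34.7 ± 11.4 (adjusted p = 0.0739). Neither passed the threshold. With the 14 longest lists the naive comparison passed, at 41.6 ± 12.4 after LPS and 0 ± 0 after PBS (n = 3 each; difference 41.6 ± 9.72, adjusted p = 0.0109), and the AF9-experienced one did not (adjusted p = 0.280). The 0 after PBS is set by the cut at 38762 peaks. Naive PBS 2, 3 and 4 held the peak past it, at positions 44067, 47265 and 46529.

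The upstream Ctsg region at -3.1 kb, named after its values were seen, ranked 24.5, 20.1, 44.3, 0 and 54.9 in AF9-experienced LPS, against 19.8, 11.6 and 0 in AF9-experienced PBS libraries. It ranked 48.8 and 46.1 in naive LPS, against 19.9, 26.4 and 2.34 in naive PBS libraries. The naive groups, of 2 LPS and 3 PBS libraries, did not overlap, which so few values can do by their order alone. Neither comparison passed (limma, adjusted p = 0.309 in AF9-experienced and 0.195 in naive mice). The region at +3.4 kb, 0.6 kb past the gene, was at 0 in 5 of 13 libraries, and its ranks ran up to 63.7 in AF9-experienced LPS, 59.2 in AF9-experienced PBS, 43.2 in naive LPS and 55.03 in naive PBS libraries.

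Ltf encodes lactoferrin, the iron-binding protein of secondary granules. Its start region (chr9:111018719-111019421) covered 77 to 300 of the 300 promoter bases in the 13 lists that held it. Ranks were 0, 17.4, 0, 0 and 18.6 in AF9-experienced LPS libraries, against 32.1, 52.6 and 23.3 in AF9-experienced PBS libraries. They were 0 and 20.7 in naive LPS libraries, against 37.3, 28.6 and 36.9 in naive PBS libraries. Every LPS library stood below every PBS library of its own background, the opposite order to that at Ctsg. The means were 7.20 ± 9.87 in AF9-experienced LPS (SD, n = 5) and 36.0 ± 15.03 in AF9-experienced PBS libraries (n = 3), a difference of -28.8 ± 9.25 points that missed the threshold (SE, limma, adjusted p = 0.0546). In naive mice they were 10.4 ± 14.7 after LPS (n = 2) and 34.3 ± 4.93 after PBS (n = 3), a difference of -23.9 ± 11.6 (adjusted p = 0.233). The AF9-experienced difference passed when peaks were ranked by fold enrichment (-44.2, adjusted p = 0.00720) and when a peak had to cover 50% of the region (-36.0, adjusted p = 0.0145). The cover rule sets narrower peaks to 0, so its value also depends on peak width. With the 14 longest lists the difference shrank to -9.02 in AF9-experienced (limma, adjusted p = 0.283) and -0.44 in naive mice (adjusted p = 0.986). The cut at 38762 peaks sets AF9-experienced PBS 2 and 4 and naive PBS 3 to 0. They held the peak past it, at positions 40469, 45741 and 42575. All AF9-experienced LPS libraries were at 0 there too, so these smaller differences also depend on the cut. In the fit of 13 libraries, 4 were at 0. Of these, AF9-experienced LPS 1 listed the peak at position 73577 and naive LPS 1 at 64245, beyond the 59609 compared. AF9-experienced LPS 3 and 4 listed none. Of the short lists, AF9-experienced PBS 1 held it at position 25170 of 25219, naive LPS 3 at 36735 of 38762, and naive PBS 1 not at all.

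The strongest region of the whole set lay 3.1 kb past the end of Ltf (chr9:111045908-111046749), with Ccrl2, a chemokine receptor-like gene, 8.1 kb away on the other side. It ranked 83.8, 89.1, 91.5, 90.0 and 90.1 in AF9-experienced LPS, against 91.9, 92.01 and 92.4 in AF9-experienced PBS libraries. It ranked 87.5 and 87.2 in naive LPS, against 92.1, 95.4 and 92.1 in naive PBS libraries. All LPS libraries stood slightly below all PBS libraries in both backgrounds. The difference was -3.19 ± 1.41 points in AF9-experienced (adjusted p = 0.154) and -5.85 ± 1.76 in naive mice (adjusted p = 0.0529), and neither passed. The AF9-experienced difference passed when a peak had to cover 50% of the region (-75.3, adjusted p = 0.0104). A narrower peak is set to 0 there, so that value depends on peak width and not on rank alone. Median peak width was 280 to 382 bp in the LPS libraries of the fit and 371 to 593 bp in its PBS libraries. In the naive comparison the difference passed with the 14 longest lists (-10.9, adjusted p = 0.0110), and in all 16 libraries at the shortest list length (-23.0, adjusted p = 0.0161). Its neighbour at +28.2 kb was at 0 in AF9-experienced LPS 4 and otherwise ranked 6.73 to 46.0 in AF9-experienced LPS, 32.3 to 50.4 in AF9-experienced PBS, 37.2 and 40.9 in naive LPS, and 36.1 to 43.9 in naive PBS libraries.

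The other secondary granule genes had little open chromatin. Camp encodes the cathelicidin precursor, an antimicrobial peptide; its start region (chr9:109849302-109849869) was in 9 of 16 lists. It ranked 15.4 and 27.4 in AF9-experienced LPS 2 and 5 and 12.5 in AF9-experienced PBS 3, and was at 0 in the other 10 libraries of the fit. Among those, AF9-experienced LPS 1, PBS 2 and PBS 4 and naive PBS 4 listed it past the 59609 compared, at positions 61294 to 67934. Both naive short lists also held it, naive PBS 1 at position 15760 of 19100 and naive LPS 3 at 30866 of 38762. Ngp, neutrophilic granule protein, had a start peak in AF9-experienced PBS 3 at position 75742 and a peak inside the gene in AF9-experienced LPS 4 at position 47881, and no other. Lcn2, which encodes the siderophore-binding lipocalin of secondary granules, had no assigned peak in any list.

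S100a8 and S100a9 encode the calcium-binding subunits of calprotectin and are neighbours on chromosome 3. The start region of S100a8 (chr3:90668864-90669299) ranked 3.35 and 26.1 in AF9-experienced LPS 1 and 2 and 14.3 in naive LPS 1, and was at 0 in the other 10 libraries. Its peak was nevertheless in 5 full PBS lists and 3 full LPS lists. In those PBS lists it stood beyond the 59609 compared, at positions 63609 to 84378. The region at -4.7 kb ranked 47.1 in AF9-experienced LPS 3 and 0 in the other 4 AF9-experienced LPS libraries, against 24.6, 20.2 and 14.2 in AF9-experienced PBS; it ranked 17.1 and 0 in naive LPS, against 4.49, 14.7 and 0 in naive PBS libraries. Of S100a9, the start region was listed once, in an AF9-experienced LPS library, and the region inside the gene reached at most 9.77. The S100a9 -14.5 kb region (chr3:90709746-90710428), which lies between S100a9 and Pglyrp4, 16.5 kb from Pglyrp4, was by contrast strong throughout. It ranked 86.5, 84.1, 79.4, 78.0 and 74.7 in AF9-experienced LPS, against 83.0, 80.2 and 77.8 in AF9-experienced PBS libraries. It ranked 77.2 and 73.6 in naive LPS, against 77.8, 82.6 and 78.8 in naive PBS libraries. The AF9-experienced groups overlapped, with a difference of 0.22 ± 2.51 points (adjusted p = 0.968); the naive LPS libraries lay below the naive PBS libraries by -4.27 ± 3.14 points (adjusted p = 0.455). Ranking by fold enrichment turned the AF9-experienced difference to -8.12 (adjusted p = 0.0449).

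**Figure D3:**
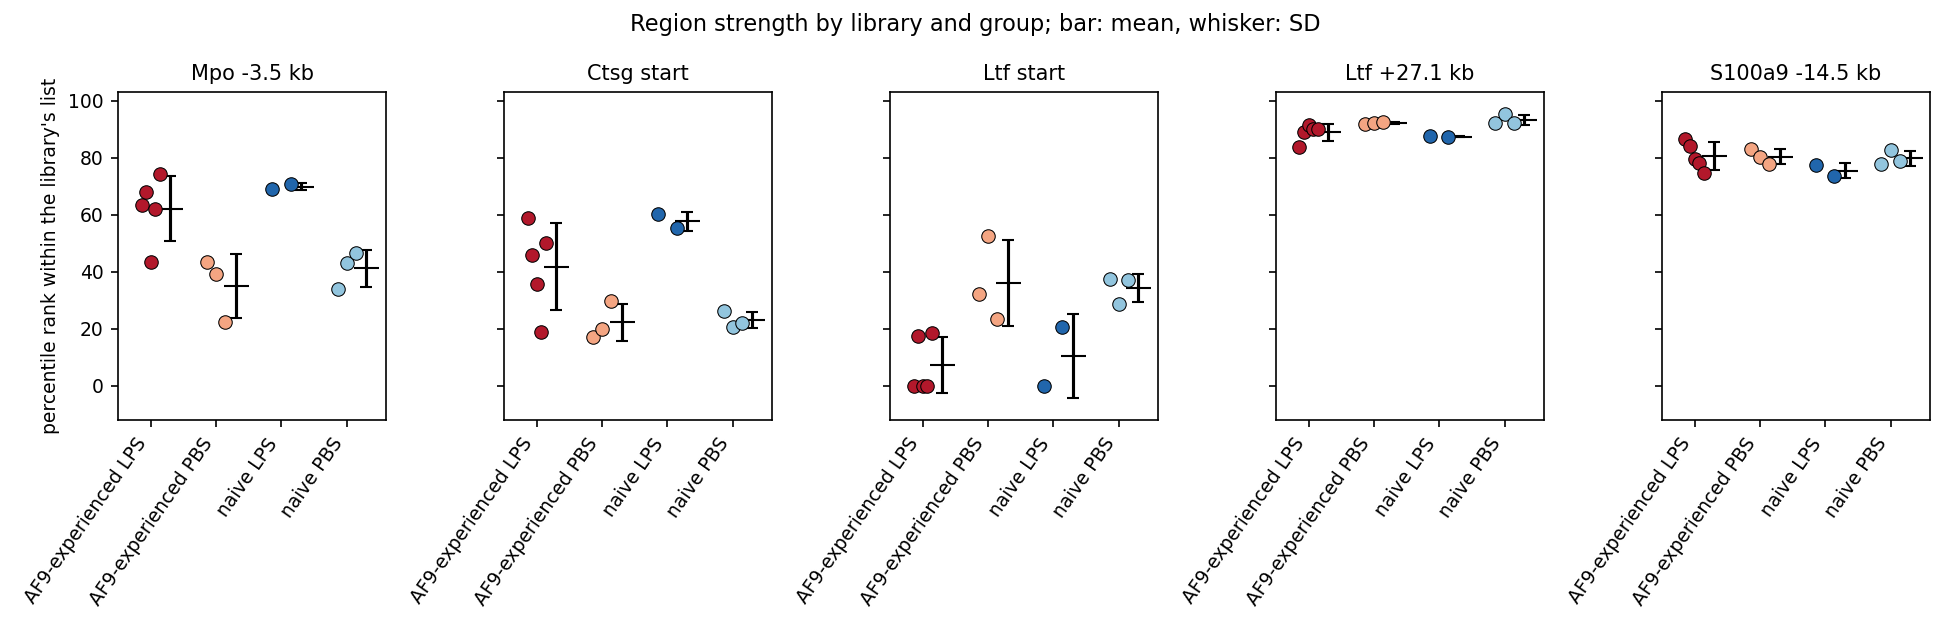
Percentile rank of 5 regions (1 panel each) by group; each point is a library, the bar is the mean and the whisker the SD. Mpo -3.5 kb and Ctsg start are higher in the LPS groups except for AF9-experienced LPS 3 at Mpo (43.4) and LPS 4 at Ctsg (18.9), Ltf start is lower in every LPS library, and the Ltf +27.1 kb and S100a9 -14.5 kb regions stay between 73.6 and 95.4.

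Across the set, LPS in AF9-experienced mice gave 1 call among the 18 tested regions, higher after LPS, against a background of 4.93% of all 70017 tested regions called higher and 5.53% called lower. One call in 18 is near that background, so the count says nothing particular of these genes. The median difference was 0.94 points over the 18 regions, with 10 higher and 8 lower, and -0.86 over all tested regions. Unadjusted p (limma) was under 0.05 at 4 of the 18, and at 18756 of all 70017 tested regions, so this count is not particular to these genes either. The 3453 regions called higher and 3872 called lower over all became 1307 and 5832 when a peak had to cover 50% of a region, and 810 and 411 in all 16 libraries at the shortest list length.

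LPS in naive mice gave 0 calls among the 18 with limma, against 3.9% of all regions called higher and 2.83% called lower. Unadjusted p was again under 0.05 at 4 regions, and at 15627 of all 70017 tested regions. The smallest adjusted p among the 18 was 0.0529 (limma). The median difference was 1.07 points over the 18 regions, with 11 higher, 6 lower and 1 at 0, and -0.76 over all. Over all regions, the 2734 called higher and 1981 called lower became 1308 and 3861 when a peak had to cover 50% of a region. The 2 naive LPS libraries in the fit limit this comparison; with the 14 longest lists, which bring back the third naive LPS library, 2 regions were called higher (Mpo -3.5 kb and Ctsg start) and 1 lower (Ltf +27.1 kb), where 4.34% and 4.59% of 46997 regions were called higher and lower.

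**Figure D4:**
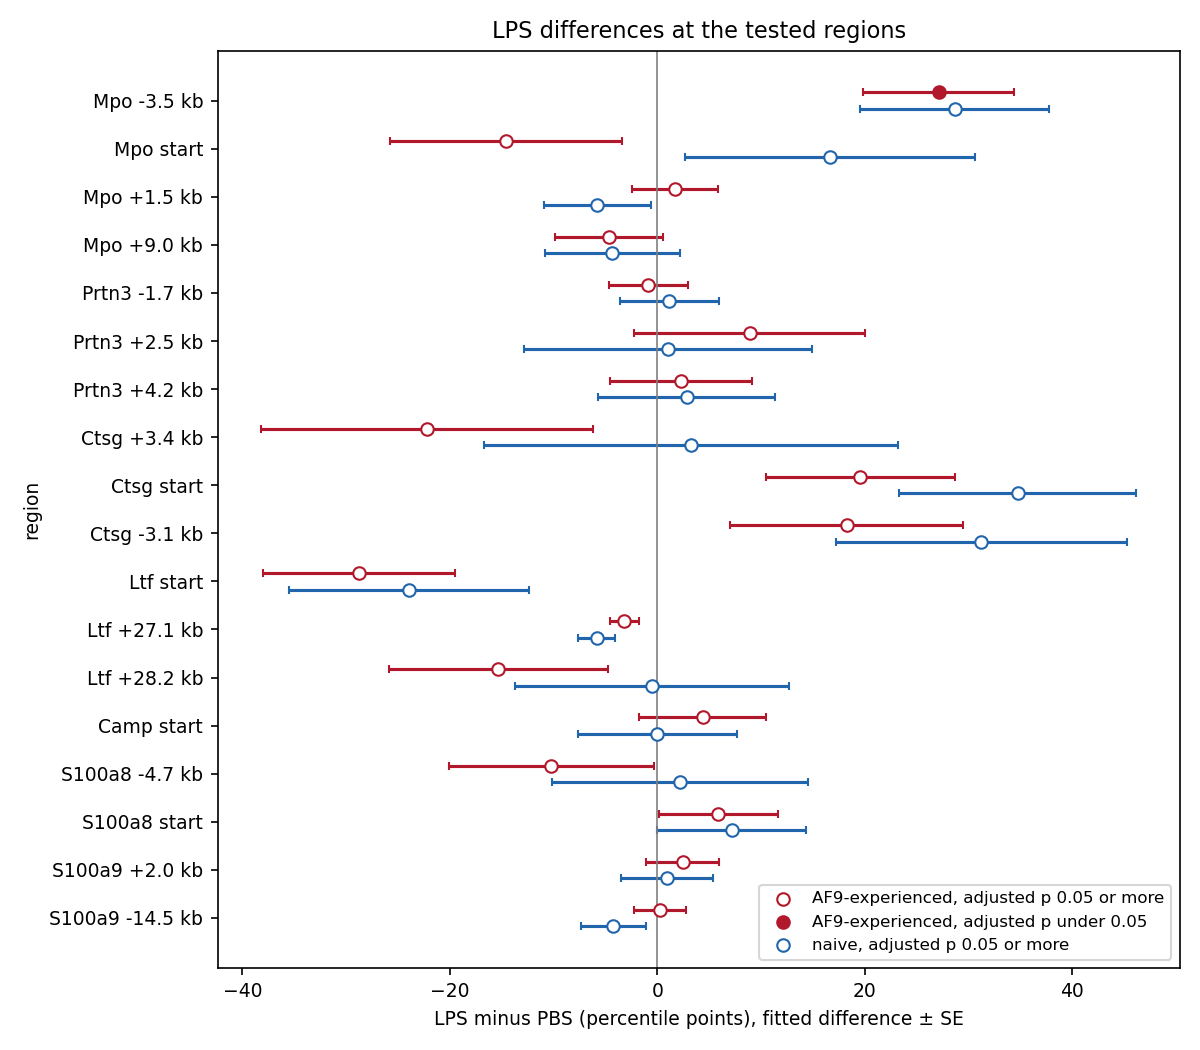
Fitted LPS minus PBS difference (percentile points, whisker SE) at the 18 tested regions in AF9-experienced (red) and naive mice (blue). The only filled point, an adjusted p under 0.05, is Mpo -3.5 kb in AF9-experienced mice at 27.1 points; the naive value there is 28.6.

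AF9-experienced mice set against naive mice, the comparison of remission with no leukaemia history, gave 0 calls at the granule genes after either injection with limma. After LPS, 9 of 70017 regions were called in all (0.0129%), of which 1 was higher (0.00143%) and 8 were lower in AF9-experienced mice (0.0114%), and after PBS 0 (0.0%, with 2175 regions at unadjusted p under 0.05). No granule gene region had an unadjusted p (limma) under 0.05 in either, where 4291 of all 70017 regions had one after LPS. After LPS the differences ran from -18.7 points at Ctsg -3.1 kb (28.7 ± 21.5 in AF9-experienced, n = 5, and 47.4 ± 1.89 in naive mice, n = 2) to 8.55 at the Camp start. After PBS the widest was 33.6 at Ctsg +3.4 kb, which averaged 51.9 ± 6.40 in AF9-experienced and 18.3 ± 31.8 in naive mice (n = 3 each, adjusted p = 1). The interaction, which asks whether LPS acted differently in the 2 backgrounds, gave 0 calls among the 18 and 0 (0.0%) among all regions, with 2762 regions at unadjusted p under 0.05. Its widest value among the granule genes was -31.2 ± 17.9 points at the Mpo start (adjusted p = 0.993). The standard error of this comparison was 2.25 points at the Ltf +27.1 kb region and 25.6 at the Ctsg +3.4 kb region. Even at Ltf +27.1 kb a value of 2.66 points, above its standard error, was far from passing (limma, adjusted p = 0.993). The absence of a call therefore does not show that LPS acted alike in both backgrounds.

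Calls were set beside those at other genes of the same programme, from lists chosen with earlier results of these data known. Among 22 other neutrophil granule and mature neutrophil genes, 19 had 56 tested regions. In AF9-experienced mice 2 of them had a region higher after LPS, Hp (haptoglobin) and Mmp8 (neutrophil collagenase), and 2 had one lower, Mmp9 (gelatinase B) and Fpr2 (a formyl peptide receptor). The background of genes with a region called was 15.4% higher and 16.7% lower of 15687. In naive mice 4 had a region higher, namely Hp, Mmp8, Bpi (an endotoxin-binding granule protein) and Ms4a3 (a marker of granulocyte-monocyte progenitors), and 1, Mmp9, had one lower, against 12.6% and 9.31% of all genes.

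The gene-start region of Hp averaged 43.5 in AF9-experienced LPS and 4.53 in AF9-experienced PBS libraries, a difference of 39.0 ± 9.65 points (SE, limma, adjusted p = 0.0162). In naive mice it averaged 54.1 after LPS and 4.51 after PBS (difference 49.6 ± 12.1, adjusted p = 0.0219). Mmp8 averaged 37.2 in AF9-experienced LPS and 8.80 in AF9-experienced PBS libraries (28.4 ± 8.72, adjusted p = 0.0454), and 42.4 in naive LPS and 0 in naive PBS libraries (42.4 ± 10.9, adjusted p = 0.0281). Both thus ranked higher after LPS in both backgrounds (n = 5 and 3 in AF9-experienced, 2 and 3 in naive mice, LPS and PBS). A region inside the Mmp9 gene model, 7336 bp from the nearer end, went the other way, at 20.2 in AF9-experienced LPS and 65.7 in AF9-experienced PBS libraries (-45.5 ± 9.70, adjusted p = 0.00701), and at 15.6 in naive LPS and 57.6 in naive PBS libraries (-42.0 ± 12.1, adjusted p = 0.0452). Mmp9, whose protein is stored in the tertiary granules, shared this lower rank with the start of Ltf, which did not pass the test.

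All 14 regulators of granulopoiesis on the list had tested regions, 154 in all. In AF9-experienced mice 3 of them had a region higher after LPS (Etv6, Klf4 and Runx1) and 4 one lower (Cebpa, Etv6, Gfi1 and Stat3), and in naive mice 5 had one higher (Etv6, Gfi1, Klf4, Myb and Runx1) and 1 one lower (Runx1). The background was again 15.4% of all genes higher and 16.7% lower in AF9-experienced mice, and 12.6% and 9.31% in naive mice. Per region, 8 of the 154 were called higher and 5 lower in AF9-experienced mice, against 4.93% and 5.53% of all regions, and 10 and 1 in naive mice, against 3.9% and 2.83%. Runx1, which encodes a RUNX factor, had the largest rise of them. That region inside the gene averaged 63.3 in AF9-experienced LPS and 1.77 in AF9-experienced PBS libraries (61.5 ± 8.21, adjusted p = 0.000306), and 62.1 in naive LPS and 13.4 in naive PBS libraries (48.7 ± 10.3, adjusted p = 0.0111). Klf4, a monocyte-promoting factor, had a region 37.5 kb from its gene at 85.4 in AF9-experienced LPS and 54.0 in AF9-experienced PBS libraries (31.4 ± 3.71, adjusted p = 0.000133). A region 4.90 kb from Cebpa, the C/EBP factor needed for granulocyte commitment, was lower in AF9-experienced mice, at 12.1 after LPS and 45.6 after PBS (-33.6 ± 10.1, adjusted p = 0.0407). Its naive averages were 24.9 after LPS and 60.6 after PBS, which did not pass.

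Averaged over the 18 tested regions, a library's rank was 24.8 to 39.6 in AF9-experienced LPS, 29.3 to 33.9 in AF9-experienced PBS, 31.7 and 36.2 in naive LPS, and 27.9 to 31.2 in naive PBS libraries, so the groups overlapped in AF9-experienced mice. The genes outside the set with a region most like this average over the 13 libraries were Msra (Pearson r = 0.923), Piwil2 (0.890), Jaml (0.884), Fkbp9 (0.879) and Cog3 (0.878). These correlations are a description over libraries that share the treatment and its median fold enrichment.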

How the data were processed

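The peak lists were made by the authors; per the submitters' processing notes the tools were FastQC, Trim Galore, BWA, Picard and MACS3 and the build GRCm38, with versions not given in the sources used here. The labels name both Omni-ATAC and a Chromium chemistry. Deposited lists give per peak a fold enrichment (a ratio), a -log10 p, a -log10 q and a summit position; the smallest -log10 q was 1.30 to 1.33. Values are the peak's own and were used only to rank peaks within a list.

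Lists were assigned to groups by name. The 13 lists with at least 50000 autosomal peaks were shortened to 59609 each, peaks were merged over libraries, and the 70017 regions found in 3 or more of these lists were fitted with limma 3.58.1 (R 4.3.3; 1 mean per group, trend and robust options) with Benjamini-Hochberg adjustment over all tested regions, called at an adjusted p below 0.05. P-values measure the spread between labelled replicates. Named regions are, per gene, the strongest, the strongest within 1 kb of a gene end, and every called one; other tested regions are given by their ranges. Region sequences other than promoters are not used here. Members and lists were chosen with earlier results of these data known. Alternatives changed list length, ranking, overlap, libraries, covariates and moderation; 2 were added after the data were seen.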

Additional observations from a re-analysis of the deposited data

Results flagged for a closer look

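Within the 5 AF9-experienced LPS libraries, 12 regions were checked for a library far from the others. By Dixon's test, 4 stood out at its 95% critical value of 0.71. Its chance rate of about 1 in 20 groups assumes normally distributed values. Ranks set to 0 break that assumption, so the 4 flags cannot be set against this rate. The Prtn3 region at +4.2 kb ranked 63.4 in AF9-experienced LPS 4, against 43.3 to 48.4 in the other 4. The S100a8 -4.7 kb region ranked 47.1 in LPS 3 and 0 in the other 4. The S100a8 start region ranked 26.1 in LPS 2, against 3.35 in LPS 1 and 0 in the other 3. The S100a9 +2.0 kb region ranked 9.77 in LPS 2, against 2.33 in LPS 1 and 0 in the other 3. The last 3 sit at weak regions where a single called peak sets the group's range, and none of the 4 was called in an LPS comparison.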

How the results depend on the processing

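Each count and each LPS difference given for Mpo -3.5 kb, Ctsg start, Ltf start, Ltf +27.1 kb and S100a9 -14.5 kb was recomputed under 28 alternatives where it could be fitted; the causes of the shifts were not tested. In AF9-experienced mice, the 1 called region became 0 in all 16 libraries at the shortest list length, in full lists of all 16 libraries, for presence of a peak in those lists, for presence of peaks past a -log10 q of 5, with only the groups compared, with median fold enrichment as a covariate, and without libraries with Y peaks. It became 2 with a peak covering 50% of the region, where Mpo was not called and both calls were Ltf regions, lower after LPS. It became 2 (Mpo and Ltf start) with plain eBayes moderation, 3 (Mpo, Ltf start and S100a9 -14.5 kb) when ranked by fold enrichment, and 0 to 2 without single libraries: 0 without AF9-experienced PBS 3 or PBS 4 and 2 without AF9-experienced LPS 5. In naive mice, the count of 0 became 1 in all 16 libraries at the shortest list length and with plain moderation, 2 with lists of 29804 peaks, 3 with the 14 longest lists, and 0 to 2 without single libraries, always an AF9-experienced LPS library, which enters through the shared spread. The labels used here do not say whether equal replicate numbers pair the samples. Same-numbered libraries of different groups had correlations of -0.187 to 0.133, other pairs -0.163 to 0.238. These are correlations of deviations from the means of small groups, and cannot settle whether the numbers pair samples. With the number as a replicate block, 0 of the 18 granule gene regions were called. Mpo -3.5 kb then differed by 23.0 points in AF9-experienced mice (limma, adjusted p = 0.0878). Over all regions, that fit called 3012 higher and 3875 lower after LPS in AF9-experienced mice, and 1031 and 614 in naive mice.

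The Mpo -3.5 kb difference in AF9-experienced mice was positive throughout and passed under 6 of 15 alternatives and in 11 of the 13 fits that left out 1 library. Signs turned in these cases: Ltf start in naive mice for presence in full lists (a share difference of 0.25, adjusted p = 0.958); Ltf +27.1 kb in AF9-experienced mice in full lists (0.975 points); and S100a9 -14.5 kb, near 0 in AF9-experienced mice, by fold enrichment (-8.12), with 50% cover (-16.6), without libraries with Y peaks (-2.97) and without single libraries (-1.27 to 1.69), and in naive mice with the covariate (4.23). The 7 other named regions gave 353 further values, of which 38 changed sign and 0 were called (lowest adjusted p 0.0571). Over all regions, LPS calls (3453 higher and 3872 lower in AF9-experienced, 2734 and 1981 in naive mice) fell to 0 in both backgrounds in full lists, to 0 in AF9-experienced mice with the covariate and to 0 in naive mice with only the groups compared. They became 9945 and 9758 in AF9-experienced and 5430 and 3539 in naive mice when ranked by fold enrichment, and 527 and 301 in naive mice without naive LPS 2. List length limits what could be found: a peak below a list's end is not distinguishable from no peak.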
